A study of Mus musculus with 6 samples.

Results

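The 10 genes described here are genes of the colonic crypt stem cell and targets of canonical Wnt signaling, namely Lgr5, Ascl2, Smoc2, Sox9, Lrig1, Axin2, Rnf43, Znrf3, Nkd1, and Cd44. They were chosen by symbol, and all 10 were found among the 27546 genes of the deposited expression table. Distal colon was sequenced as RNA from 3 Gm31629-/- mice and 3 WT littermates, 1 library per mouse. All 6 mice were of the C57BL/6 strain (C57BL/6J in the methods) and 8 weeks old, drank water with 3% dextran sulfate sodium (DSS), which damages the lining of the colon, over 7 days and were killed on day 8. Gm31629-/- mice lack a targeted region of the long noncoding RNA gene Gm31629 on chromosome 1. There were no untreated mice, so each comparison is between genotypes under injury. The methods speak of RNA pooled from the mice, whereas the table gives 1 column per mouse, and the columns were taken as separate mice. If they are not, the p-values measure technical spread only.

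Crypts are pits of the colonic epithelium whose base holds the stem cells that renew it. Wnt ligands bind Frizzled receptors with the co-receptors Lrp5 and Lrp6, which spares β-catenin from a destruction complex built on Axin and Apc and lets it act with TCF/LEF factors on target genes. Several targets feed back on the pathway. Axin2 is a scaffold of the destruction complex, Nkd1 binds Dishevelled, and Rnf43 and Znrf3 are ubiquitin ligases that take Frizzled off the cell surface. R-spondins, secreted mainly by cells beneath the epithelium, bind Lgr4 and Lgr5 and hold those ligases back.

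Sox9 and Axin2 were lower in the colon of Gm31629-/- mice and Nkd1 was much higher, whereas the other tested members did not pass the test. Lgr5 and Ascl2 were nearly absent from all 3 Gm31629-/- mice and also scarce in WT mouse 2. Expression is given as FPKM, fragments scaled by the length of the gene and the depth of the library, so that levels can be compared between genes. Genotypes were compared with limma on log2(FPKM + 1), for the 14657 genes that averaged 0.5 FPKM or more, p-values were adjusted by the Benjamini-Hochberg method over all of them, and a gene was said to rise or fall at an adjusted p under 0.05. Adding 1 before taking logs understates the change of weakly expressed genes. Of the 10 members, 9 passed the filter on mean FPKM and Lgr5 did not. Of these 9, 1 rose and 2 fell, all 3 by more than 1 on the log2 scale, while over all tested genes 28.9% rose and 14.6% fell, 43.5% in either direction. Nkd1, the member that rose, reached the filter through its Gm31629-/- values alone, and Ascl2 through its WT values alone. The median log2 fold change was −0.07 over the 9 members and 0.15 over all tested genes. The values of the 3 Gm31629-/- mice and the 3 WT mice did not overlap for 4 of the 9, which were Nkd1, Sox9, Axin2, and Rnf43, against 57.8% of all tested genes (36.3% with Gm31629-/- mice higher and 21.5% with them lower).

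**Figure D1:**
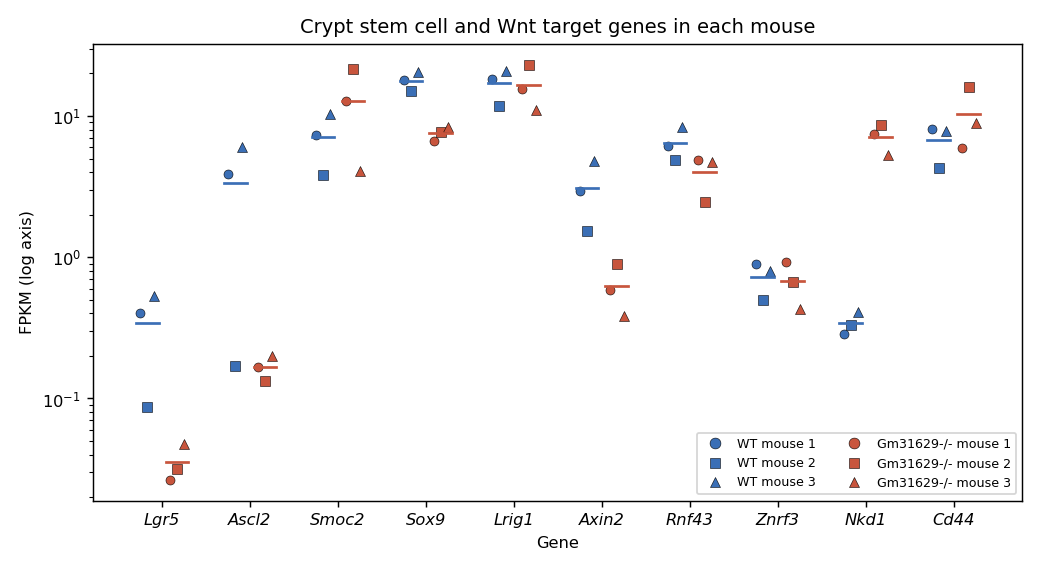
FPKM of the 10 genes in each mouse on a log axis, with WT mice in blue, Gm31629-/- mice in red, a symbol for each mouse, and a line at each group's mean. Nkd1 lies higher in every Gm31629-/- mouse than in any WT mouse, Sox9 and Axin2 lie lower, and WT mouse 2 (blue square) lies with the Gm31629-/- mice for Ascl2.

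The libraries were of like depth, between 18006000 and 18795100 fragments. The tissue differed in makeup. All 15 epithelium markers were detected in every mouse, led by Krt8, and their summed level was 7395 to 8933 FPKM in Gm31629-/- mice and 12165 to 13204 FPKM in WT mice, with 8 of the 15 lower and none higher by limma. In WT mice the keratins Krt8 (4198 FPKM on average, against 2042 in Gm31629-/- mice) and Krt19 (2068 against 1042) weighed most in that sum. Epcam (1109 FPKM in Gm31629-/- mice against 1104 in WT mice, limma adjusted p = 0.982) and Cdh1 (395 against 405, limma adjusted p = 0.844) did not pass. The 12 smooth muscle markers summed to 1587 to 2576 FPKM in Gm31629-/- mice and to 15.8 to 42.9 FPKM in WT mice, with 11 of 11 tested markers higher. The fibroblast sum was 240.1 to 660 FPKM against 23.5 to 43.6 (12 of 12 higher), the endothelium sum 68.6 to 125 against 3.00 to 8.37 (10 of 10 higher), and the leukocyte sum 419 to 971 against 54.4 to 63.9 (11 of 12 higher). The enteric neuron and glia sum was 57.1 to 204 FPKM against 2.83 to 5.42 (11 of 12 higher), and Elavl4 of that list was listed at 0 in every WT mouse. Over all tested genes 28.9% were higher and 14.6% lower. All nerve markers but Ret averaged under the filter of 0.5 FPKM in WT mice. So did most endothelium markers and some of the muscle, fibroblast, and leukocyte markers. These could be tested only where Gm31629-/- mice were higher, so counting them as higher carries no weight. Ret did not pass (limma adjusted p = 0.0831). The muscle and nerve sums were far lower in WT tissue than in Gm31629-/- tissue. Not all of these markers were scarce in WT mice, where Acta2 had 5.01 to 14.2 FPKM and Ret 2.42 to 4.37 FPKM. The part that this difference in makeup has in the results below was not tested, and in whole tissue fewer cells of a type and less RNA per cell cannot be told apart. The table gave no row matched to Gm31629, whose level was not analysed here, so the genotypes were not checked by it. Transcripts of 4 Y-linked genes were present in Gm31629-/- mouse 1 and in no other mouse, although the methods describe male mice. The X-linked transcript Xist had 0.006 FPKM in that mouse and 8.35 to 13.8 FPKM in the others. By these transcripts the libraries were not all of the same sex, and the part of sex in the results was not tested.

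**Figure D2:**
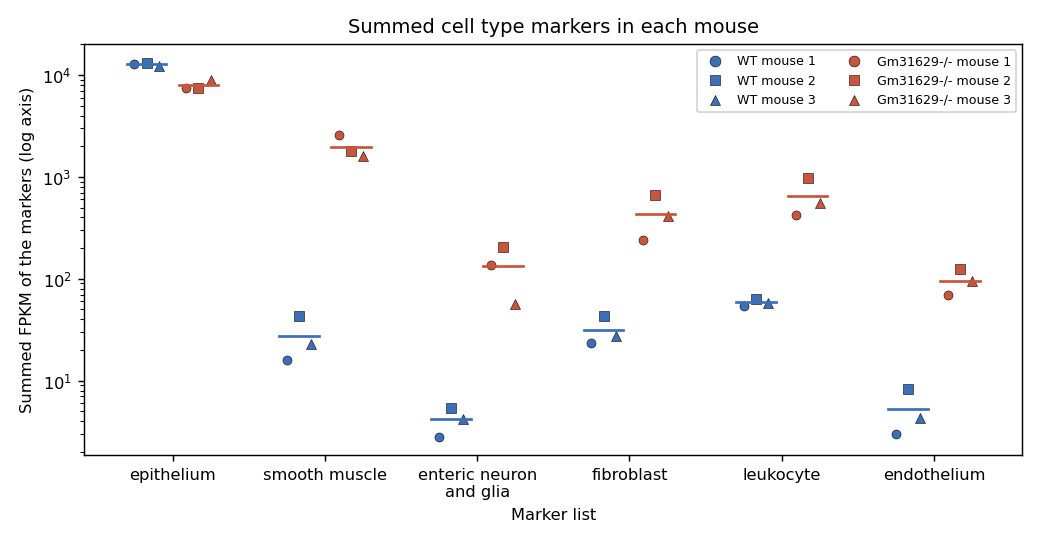
Summed FPKM of 6 lists of cell type markers in each mouse, on a log axis, with a symbol for each mouse and a line at each group's mean. The epithelium sum is lower in each of the 3 Gm31629-/- mice, and the other 5 sums are higher in each of them than in any WT mouse.

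Promoter sequence was available from RefSeq (GRCm38.p6) for 6 of the 10 members, as the 250 bases before an annotated start. The windows of Ascl2 and Axin2, members at low level in Gm31629-/- mice, and of Nkd1, the member that rose, are shown so that their letters can be compared. Capitals mark the letters GGGCGG of the GC box and CCAAT of the CCAAT box, read on both strands.
Ascl2 (chr7:142969265-142969514, minus strand): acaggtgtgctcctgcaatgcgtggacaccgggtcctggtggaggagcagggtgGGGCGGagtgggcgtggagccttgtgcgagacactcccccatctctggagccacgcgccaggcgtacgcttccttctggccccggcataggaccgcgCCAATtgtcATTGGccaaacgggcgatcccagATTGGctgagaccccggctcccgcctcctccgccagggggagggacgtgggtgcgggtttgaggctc
Axin2 (chr11:108920099-108920348, plus strand): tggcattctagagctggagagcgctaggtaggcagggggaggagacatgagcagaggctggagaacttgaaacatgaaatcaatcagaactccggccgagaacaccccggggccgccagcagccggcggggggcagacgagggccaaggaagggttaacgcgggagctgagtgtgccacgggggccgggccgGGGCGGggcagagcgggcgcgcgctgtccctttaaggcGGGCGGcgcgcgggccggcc
Nkd1 (chr8:88527383-88527632, plus strand): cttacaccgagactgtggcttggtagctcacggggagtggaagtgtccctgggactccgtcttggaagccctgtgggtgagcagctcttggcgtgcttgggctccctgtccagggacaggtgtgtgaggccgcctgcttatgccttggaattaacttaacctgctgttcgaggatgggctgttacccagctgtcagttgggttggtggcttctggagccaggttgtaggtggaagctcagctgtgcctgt

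The TCF/LEF letters CTTTGAA or CTTTGAT, which β-catenin's partners are known to read, were in none of the 7 windows of the 6 members and in 7.48% of 32851 promoter windows. A GC box was in the windows of Lrig1, Ascl2, and Axin2 and in 32.7% of all windows. A CCAAT box was in those of Lrig1 and Ascl2 and in 33.8% of all windows. The windows of Lrig1, Axin2, and Ascl2 held 26, 24, and 19 CpG dinucleotides and that of Nkd1 held 6, where the median of all windows was 6. The start used for Nkd1 lies inside the gene as GENCODE draws it. These matches describe letters, and none of them shows binding.

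Lgr5 (chr10:115450311-115587780), the R-spondin receptor that marks the stem cells at the crypt base, was the scarcest member in Gm31629-/- mice. Gm31629-/- mice 1 to 3 had 0.026, 0.032, and 0.048 FPKM, from 5, 6, and 9 fragments. WT mice 1 to 3 had 0.406, 0.087, and 0.534 FPKM, from 77, 16, and 103 fragments. Every WT mouse lay above every Gm31629-/- mouse, and the mean was 9.69 times higher in WT mice, but WT mouse 2 stood nearer to the Gm31629-/- mice than to the other WT mice. The 95% Poisson interval of its 16 fragments was 9.15 to 26.0 and that of the 9 fragments in Gm31629-/- mouse 3 was 4.12 to 17.1, so these counts overlap within counting error. For a single gene, 3 mice against 3 cannot go below an exact permutation p of 0.10, which Lgr5 reached (two-sided). Tested without the filter, the log2 fold change was −0.36 (limma adjusted p = 0.0872), and with voom on the recovered fragments it was −2.88 ± 0.89 (SE, limma adjusted p = 0.0301), where 45.9% of 17555 genes passed.

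Ascl2 (chr7:142966829-142969264), a transcription factor of the same stem cells, had the widest spread within WT mice. Gm31629-/- mice 1 to 3 had 0.167, 0.134, and 0.201 FPKM, from 5, 4, and 6 fragments. WT mice 1 to 3 had 3.90, 0.171, and 6.06 FPKM, from 117, 5, and 185 fragments. WT mouse 2 thus lay among the Gm31629-/- mice, and the highest WT value was 35.4 times the lowest. The log2 fold change was −1.56 ± 0.61 (SE) and did not pass (limma adjusted p = 0.0736). Without WT mouse 2 it was −2.33, with a limma adjusted p of 0.00272, so that mouse decided the call.

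Sox9 (chr11:112782224-112787760), an HMG-box factor of the lower crypt, had the highest mean of the members in WT mice, where it overlapped Lrig1. WT mice 1 to 3 had 18.0, 15.002, and 20.4 FPKM, and Gm31629-/- mice 1 to 3 had 6.69, 7.76, and 8.31 FPKM. The groups were far apart against their spread, with means of 17.8 ± 2.69 and 7.58 ± 0.823 (SD, n = 3 each). Sox9 fell by 1.12 on the log2 scale (SE 0.16, limma adjusted p = 0.00228) and passed in all 6 fits that each left out 1 mouse. When each library was scaled to the epithelium markers, the log2 fold change was −0.46 and no longer passed (limma adjusted p = 0.0957). The factor was the geometric mean of the 15 epithelium markers. These did not move alike, with log2 fold changes from −3.14 (Cdx2) to 0.51 (Tspan8), so the result depends on the markers chosen. That scaling moved the median of all tested genes from 0.15 to 0.70, and the deposited scale and the epithelium scale therefore give different pictures of the members.

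Smoc2 and Lrig1 did not follow Lgr5. Smoc2 (chr17:14279506-14404790), a secreted matrix protein enriched in Lgr5 stem cells, had 12.9, 21.5, and 4.06 FPKM in Gm31629-/- mice 1 to 3. In WT mice 1 to 3 it had 7.31, 3.84, and 10.3 FPKM. The ranges overlapped and the difference was 0.60 ± 0.56 (log2, SE, limma adjusted p = 0.412). Smoc2 varied by 5.30 times among Gm31629-/- mice, the most of any member. Of the marker sums, only that of enteric neurons and glia was likewise highest in Gm31629-/- mouse 2 (204 FPKM) and lowest in mouse 3 (57.1 FPKM). The fibroblast, leukocyte, and endothelium sums were lowest in mouse 1, where the smooth muscle sum was highest. Mouse 2 was the highest Gm31629-/- mouse for 44.0% of all tested genes. The relation of Smoc2 to these sums was not tested. Lrig1 (chr6:94604529-94700158), a membrane protein that restrains EGF receptors in stem and progenitor cells, had 15.5, 23.1, and 10.9 FPKM in Gm31629-/- mice and 18.4, 11.8, and 20.98 FPKM in WT mice. Both groups covered nearly the same range, with a log2 fold change of −0.07 ± 0.30 (SE, limma adjusted p = 0.870), and the sign turned with epithelium scaling (0.61). An exon of Lrig1 overlaps Slc25a26 on the other strand, and without stranded counting reads from the pair cannot be told apart.

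Of the 4 feedback genes of the pathway, Axin2 fell, Nkd1 rose, and Rnf43 and Znrf3 did not pass the test. Axin2 (chr11:108920349-108950783) had 0.582, 0.896, and 0.386 FPKM in Gm31629-/- mice 1 to 3. It had 2.93, 1.53, and 4.77 FPKM in WT mice 1 to 3. Every WT value lay above every Gm31629-/- value, and WT mouse 2 was again the lowest of its group. Axin2 fell by 1.26 on the log2 scale (SE 0.31, limma adjusted p = 0.0153), and with voom by 2.24. It passed in 5 of the 6 fits that left out a mouse, and missed the threshold without WT mouse 1 (limma adjusted p = 0.0510) and with epithelium scaling (log2 fold change −0.86, limma adjusted p = 0.0517). The antisense gene Gm11670 overlaps its exons, so part of its reads may belong to that gene.

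Nkd1 (chr8:88521354-88594884), the Dishevelled-binding inhibitor, went the other way. It had 7.49, 8.67, and 5.28 FPKM in Gm31629-/- mice 1 to 3. It had 0.285, 0.329, and 0.409 FPKM in WT mice 1 to 3, from 24, 27, and 35 fragments. The lowest Gm31629-/- mouse lay far above the highest WT mouse, and the mean was 20.97 times higher in Gm31629-/- mice. Nkd1 rose by 2.58 on the log2(FPKM + 1) scale (SE 0.20, limma adjusted p = 0.000282) and by 4.35 with voom. Its WT mean of 0.341 FPKM was under the filter of 0.5 FPKM, which it reached through its Gm31629-/- values alone. Tested without the filter, it passed as well (limma adjusted p = 0.00205). It was the sole member to pass limma's test against a log2 fold change of 1, and it passed in all 6 fits that left out a mouse and with epithelium scaling (2.98). Its homolog Nkd2, named here after its values were seen, averaged 0.057 ± 0.042 FPKM in WT and 1.90 ± 0.796 FPKM in Gm31629-/- mice (mean ± SD of 3), and rose by 1.42 on the log2 scale (limma adjusted p = 0.00246). Nkd2 likewise reached the filter through its Gm31629-/- values alone. The sums of smooth muscle, nerve, fibroblast, leukocyte, and endothelium markers were higher in the same mice, and their part in these results was not tested.

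The Frizzled-removing ligases did not pass. Rnf43 (chr11:87662722-87735539) had 4.85, 2.46, and 4.71 FPKM in Gm31629-/- mice 1 to 3 and 6.11, 4.86, and 8.35 FPKM in WT mice 1 to 3. The groups touched without overlapping, and the difference of −0.58 ± 0.27 (log2, SE) did not pass (limma adjusted p = 0.118). It passed when libraries were rescaled by their median ratio (−0.80, limma adjusted p = 0.0471), and with epithelium scaling the difference was 0.00. Znrf3 (chr11:5276324-5444847), its homolog, had 0.929, 0.666, and 0.428 FPKM in Gm31629-/- mice and 0.890, 0.4996, and 0.795 FPKM in WT mice. The groups overlapped throughout, with a log2 fold change of −0.05 ± 0.18 (SE, limma adjusted p = 0.840) that was 0.24 with epithelium scaling.

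Cd44 (chr2:102811141-102901665), a hyaluronan receptor that is a Wnt target in crypts and also abundant on leukocytes and fibroblasts, had 5.95, 16.0, and 8.86 FPKM in Gm31629-/- mice 1 to 3. In WT mice 1 to 3 it had 8.07, 4.31, and 7.77 FPKM. The ranges overlapped, and the log2 fold change of 0.49 ± 0.36 (SE) did not pass (limma adjusted p = 0.301), although with epithelium scaling it was 1.12 (limma adjusted p = 0.0419). Gm31629-/- mouse 2, the highest for Cd44, also had the highest sums of leukocyte (971 FPKM) and fibroblast markers (660 FPKM), and mouse 1, the lowest, had the lowest (419 and 240.1 FPKM). That mouse 2 was the highest of the Gm31629-/- mice held for 44.0% of all tested genes, and the relation of Cd44 to these sums was not tested.

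**Figure D3:**
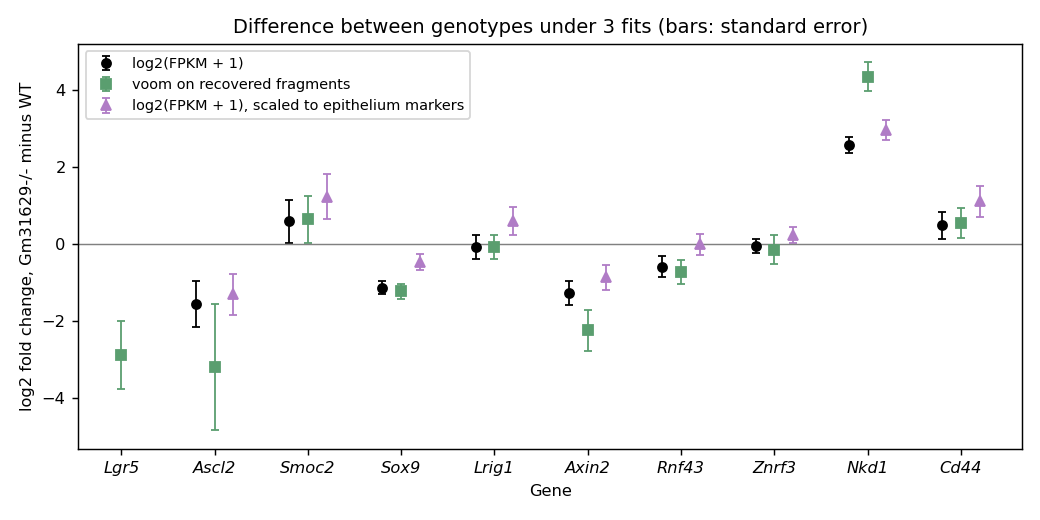
Log2 fold change (Gm31629-/- minus WT) of the 10 genes with its standard error under 3 fits, which are log2(FPKM + 1), voom on recovered fragments, and log2(FPKM + 1) after scaling to the epithelium markers. Nkd1 is positive and Sox9 and Axin2 are negative in all 3, Rnf43, Lrig1, and Znrf3 are not below 0 with epithelium scaling, and Lgr5 has a value with voom alone because it was under the expression filter of the other fits.

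The order of the levels differed between genotypes. By mean FPKM in WT mice it ran Sox9, Lrig1, Smoc2, Cd44, Rnf43, Ascl2, Axin2, Znrf3, Lgr5, and Nkd1, from 17.8 to 0.341 FPKM. Neighbors in that order overlapped in 7 of 9 pairs, and the ranges were separate between Lrig1 and Smoc2 and between Axin2 and Znrf3. In Gm31629-/- mice it ran Lrig1, Smoc2, Cd44, Sox9, Nkd1, Rnf43, Znrf3, Axin2, Ascl2, and Lgr5, from 16.5 to 0.035 FPKM, with overlap in 5 of 9 pairs. Each of the first 4 overlapped the next gene in this order, Znrf3 and Axin2 overlapped, and Ascl2 and Lgr5 stood in separate ranges at the bottom. Nkd1 was last in WT mice and the fifth in Gm31629-/- mice.

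WT mouse 2 was the lowest WT mouse for 9 of the 10 members, with Nkd1 as the exception, whereas it was the lowest for 32.6% of all tested genes. This count was made after the values were seen and has no test. The same mouse had the highest WT sum for each of the 6 marker lists, including epithelium (13204 FPKM). For Sox9, Lrig1, Rnf43, and Cd44 the WT mice differed by less than 2 times from lowest to highest, compared with 6.17 times for Lgr5 and 35.4 times for Ascl2.

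Of 16 other genes of crypt stem and progenitor cells, 12 were tested, of which 6 fell and 1 rose, with a median log2 fold change of −0.90 (all tested genes, 14.6% and 28.9%, median 0.15). The potassium channel subunit Kcne3 fell from 47.1 ± 8.69 FPKM in WT to 11.8 ± 5.49 FPKM in Gm31629-/- mice (mean ± SD of 3, as below; log2 fold change −1.98, limma adjusted p = 0.00264). Cdca7, a cell cycle-associated protein, fell from 17.1 ± 8.62 to 3.23 ± 0.205 FPKM (−1.96, limma adjusted p = 0.00595), and its WT value was also lowest in mouse 2 (7.82 FPKM). The ephrin receptor Ephb2, which helps hold cells in the lower crypt, fell from 12.3 ± 2.04 to 4.77 ± 1.53 FPKM (−1.22, limma adjusted p = 0.00520). The chloride channel Cftr fell by 1.43 (limma adjusted p = 0.0361) but passed in 1 of 6 fits that left out a mouse, the one without Gm31629-/- mouse 1. With epithelium scaling neither Ephb2 (−0.59, limma adjusted p = 0.112) nor Cftr (−0.90, limma adjusted p = 0.105) passed. With that scaling 13 genes of the list were tested, of which 3 rose and 2 fell, while 8474 of 15000 genes passed in all. The Polycomb gene Bmi1, which is expressed in many cell types, rose from 2.02 ± 0.318 to 7.13 ± 2.29 FPKM (1.40, limma adjusted p = 0.00385). Lgr4, the R-spondin receptor found along the whole crypt, stood at 20.3 ± 5.50 FPKM in the WT group and at 20.2 ± 5.21 FPKM in the Gm31629-/- group (log2 fold change 0.00, SE 0.27, limma adjusted p = 0.998). With epithelium scaling it was 0.68 and passed (limma adjusted p = 0.0358). Olfm4, a marker of crypt base cells in human colon and mouse small intestine, was listed at 0 in every WT mouse and had 2 to 4 fragments in Gm31629-/- mice.

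Of 18 other Wnt target and feedback genes, 12 were tested, of which 7 rose and 4 fell, with a median of 0.89 (all tested genes, 28.9% and 14.6%, median 0.15). The cyclin Ccnd1 fell from 29.3 ± 11.3 FPKM to 4.22 ± 1.75 FPKM (−2.51, limma adjusted p = 0.00223). The metalloproteinase Mmp7 fell from 3.27 ± 0.726 to 0.102 ± 0.088 FPKM (−1.94, limma adjusted p = 0.000501). The intestinal homeodomain factor Cdx1, which is also among the epithelium markers, fell by 1.19 (limma adjusted p = 0.00502), and Myc fell by 1.14 with overlapping groups (limma adjusted p = 0.0395), which held in 2 of 6 fits that left out a mouse, those without Gm31629-/- mouse 2 or WT mouse 2. With epithelium scaling neither Cdx1 (−0.48, limma adjusted p = 0.0580), itself part of that scale, nor Myc (−0.49, limma adjusted p = 0.329) passed. The genes that rose were led by Dkk3, a secreted Dickkopf family member, from 0.750 ± 0.511 to 37.6 ± 15.8 FPKM (4.41, limma adjusted p = 0.000314). Apcdd1, a membrane inhibitor of Wnt signaling, rose by 1.89 (limma adjusted p = 0.00241), and Tnfrsf11b, the decoy receptor osteoprotegerin, by 1.53 (limma adjusted p = 0.00886). Some genes in these counts reached the filter through a single group, such as Apcdd1 and Nkd2 through Gm31629-/- mice and Mmp7 through WT mice. Such genes could be tested only where that group was higher. Notum, a secreted deacylase that inactivates Wnt ligands, had at most 1 fragment in any mouse. Dkk1 was not analysed here.

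Of 19 genes of the signal-transducing core, all tested, 1 rose and 2 fell, with a median of −0.03 (all tested genes, 28.9% and 14.6%, median 0.15). Groups were separate for 7 of these 19, with Gm31629-/- mice lower for 6 of them. Over all tested genes they were separate for 57.8%, with Gm31629-/- mice lower for 21.5%. Ctnnb1, which encodes β-catenin, stood at 127 ± 22.1 FPKM in the WT group and at 108 ± 8.89 FPKM in the Gm31629-/- group (log2 fold change −0.22, SE 0.17, limma adjusted p = 0.321), and was 0.49 with epithelium scaling. The co-receptor Lrp5 fell by 0.78 (limma adjusted p = 0.0206) and the co-activator Bcl9 by 0.66 (limma adjusted p = 0.0179), and neither passed without WT mouse 1 or without WT mouse 3. With epithelium scaling they were −0.13 (limma adjusted p = 0.680) and −0.04 (limma adjusted p = 0.879). Tcf7l1, a TCF/LEF factor, rose by 1.13 (limma adjusted p = 0.0367) and passed in 1 of 6 fits that left out a mouse, that without Gm31629-/- mouse 1. Without WT mouse 1 or WT mouse 3, no core gene passed.

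Rspo3 and Rspo1 were the R-spondins that reached the filter, and both rose, where 28.9% of all tested genes did. They reached it through their Gm31629-/- values alone. A tested R-spondin could therefore only be higher in that group, and the count of those that rose carries no weight. Rspo3 had 3.55, 6.47, and 3.52 FPKM in Gm31629-/- mice 1 to 3, from 202, 369, and 200 fragments, against 0, 3, and 1 fragments in WT mice 1 to 3 (log2 fold change 2.39, limma adjusted p = 0.000509). Rspo1 had 1.23, 3.22, and 1.46 FPKM in Gm31629-/- mice and was listed at 0 in every WT mouse (1.51, limma adjusted p = 0.00365, a value that depends on the added 1). Rspo2 and Rspo4 were under the filter. Rspo2 had 48, 46, and 14 fragments in Gm31629-/- mice and was listed at 0 in every WT mouse, and Rspo4 had 1, 27, and 3 fragments against 0, 1, and 0. R-spondin transcripts were therefore near the detection limit in the WT libraries, where fibroblast and muscle markers were also low, and the part of tissue makeup was not tested.

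**Figure D4:**
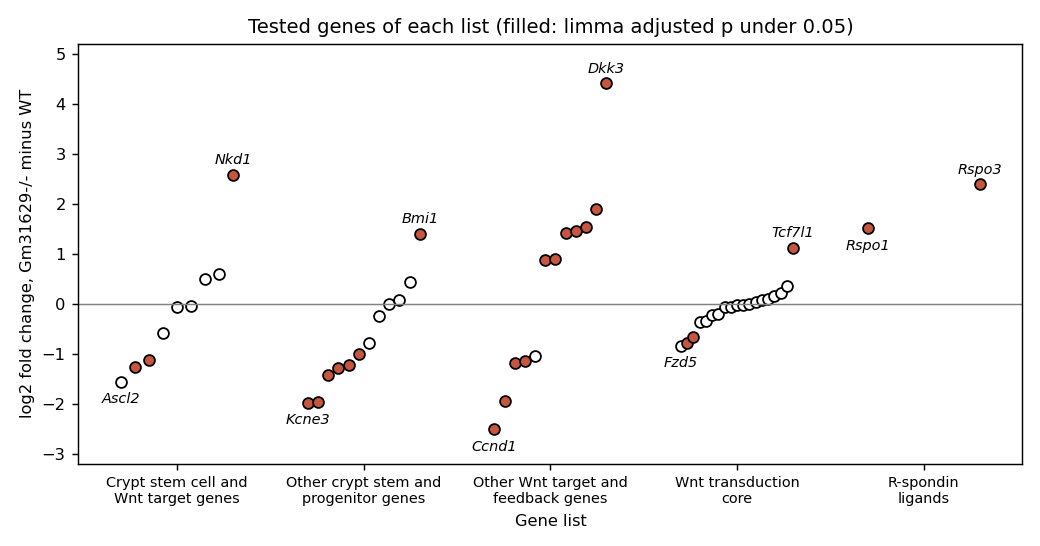
Log2 fold change (Gm31629-/- minus WT) of each tested gene in 5 lists, with filled points at a limma adjusted p under 0.05 and the lowest and highest gene of each list named. The crypt genes lie mostly below 0, the other Wnt targets fall on both sides, and most core genes lie between −1 and 1. Both R-spondins lie above 0, and they reached the expression filter through their Gm31629-/- values alone.

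Among genes that averaged 5 FPKM or more, those whose profile over the 6 mice was most like that of Axin2 were Atad3a, Ncapd2, Tomm40, C1qbp, and Mcm7. Likeness was the root mean square difference of log2(FPKM + 1) centred on each gene's mean, which was 0.101 to 0.145 over 6 libraries, while Axin2 itself spanned 2.06 log2 units. WT mouse 2 was the lowest WT mouse for these genes, which follows from picking them by likeness to Axin2 and is no separate result. Atad3a, for example, had 22.0, 12.5, and 28.5 FPKM in WT mice 1 to 3. For Lgr5 the nearest included Phf5a, Asna1, Gtpbp1, and Eral1 at 0.052 to 0.064, but Lgr5 spanned 0.58 log2 units on this scale, so many flat profiles lie near it.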

How the data were processed

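The authors deposited FPKM values for 27546 Ensembl genes in 6 libraries, made with the Illumina TruSeq RNA kit. The submitters' processing notes list HISAT2 2.1.0, HTSeq 0.6.0, and GRCm38. Their annotation release is not given in the sources used here. FPKM does not correct for newly abundant transcripts. Symbols, positions, and exon lengths came from GENCODE M21 (GRCm38), which matched 27488 genes. Fragments were recovered from FPKM steps, with 96.3% to 97.2% of the values of 20 fragments or fewer lying no more than 0.1 from a whole number. Summed over genes, the fragments (19046759 to 19882891) exceeded the depth by which FPKM was divided. Poisson intervals (95%) cover counting error only.

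Groups came from the labels. Genotypes were compared on log2(FPKM + 1) by limma's two-sided moderated test with a variance trend (limma 3.58.1, R 4.3.3), over genes that averaged 0.5 FPKM or more. DEGseq, used by the study, needs counts and was not run. The alternatives were a filter at a mean of 5 FPKM or none, 0.1 as pseudocount, TPM, median ratio, and epithelium scaling, eBayes without a trend, a replicate block, leaving out each mouse, treat, and voom on recovered fragments (at least 30 in all). A pseudocount of 0.1 without a filter was chosen after seeing the data. The scripts were tested on simulated data. Members, gene lists, and marker lists were chosen with earlier results of these data known. Besides the members, the text names Ctnnb1, Notum, Ephb2, Myc, Ccnd1, Lgr4, the R-spondins, up to 3 genes that rose most and 3 that fell most in each list among those that passed, the 5 genes most like Lgr5 and Axin2, and the leading markers, and a few items that this rule or a list names are not reported here. Olfm4, Nkd2, Elavl4, Ret, Krt19, Epcam, Cdh1, Cdx2, Tspan8, and Xist were named after their values were seen. Figures were drawn with matplotlib 3.10.9.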

Additional observations from a re-analysis of the deposited data

How the results depend on the processing

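Of the 10 members, 3 passed by limma, and 1 did with the filter at 5 FPKM (5 members left) or against a log2 fold change of 1 (treat). The same held with the fold threshold added. Groups did not overlap for 2 of the 5 members left by the stricter filter, in place of 4 of 9, since Nkd1 and Axin2 were under that filter. With treat, 0 other crypt genes passed in place of 7, and 3 other Wnt targets in place of 11. Core genes went from 3 to 0, while over all genes treat passed 912 of 14657 in place of 6376. With the stricter filter 4 other Wnt targets were tested and all 4 passed, as did 2930 of 7242 genes in all. Core genes numbered 6 with the median ratio (all lower, without Tcf7l1) or epithelium scaling (all higher, without Lrp5 and Bcl9). They numbered 0 to 4 over the fits that left out a mouse. Over all genes 7151 of 14516 passed with the median ratio and 8474 of 15000 with epithelium scaling. The fits that left out a mouse passed 3834 to 5920 genes. Members passing numbered 2 to 4 over the fits that left out a mouse, and 2 with epithelium scaling, Nkd1 and Cd44.

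Signs turned for genes that did not pass. Lrig1 was 0.61 with epithelium scaling, and −0.33 to 0.18 over the fits that left out a mouse. Znrf3 was 0.24 with that scaling and −0.158 to 0.0598 over those fits. Rnf43 was 0.0032, Ctnnb1 0.49, and Lgr4 0.68 with it. Lgr4 was also 0.0091 on the TPM scale, 0.00020 with voom, and −0.24 to 0.19 over the fits that left out a mouse. The cause was not tested.

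After each gene was centred within its genotype, same-numbered mice of the 2 genotypes had correlations of 0.036, −0.108, and 0.014. Differently numbered mice had −0.133 to 0.116. With 3 mice per genotype, these values cannot show whether the replicate numbers pair the mice, so the main fit used no pairing. With the replicate block 3 members passed as before, 9 other Wnt targets, 7 other crypt genes, and 3 core genes did, and 5389 genes in place of 6376 over the table. With few fragments, Lgr5, Ascl2, and WT Nkd1 are limited by depth.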
